A study of Homo sapiens with 12 samples.

Results

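The nuclear-encoded subunits of respiratory complexes I to IV were compared in control and PTPN21-overexpressing cells, with and without vincristine (VCR). The 59 genes were taken by name from a list of these subunits, with no threshold on their values, and each was found once among the 60671 genes of the table. They comprise 36 subunits of complex I, 4 of complex II, 9 of complex III and 10 of complex IV. RNA was sequenced from 12 libraries of cells labelled Jurkat, a human T cell leukemia line, in 4 groups of 3 libraries. NC+DMSO were control cells given the solvent DMSO, NC+VCR were control cells given VCR, a drug that blocks microtubule assembly, and PTPN21+DMSO and PTPN21+VCR were cells overexpressing the tyrosine phosphatase PTPN21 with the same treatments. All treatments lasted 48 h. By the labels the control cells were wild type, whereas by the study's methods they carried the GFP vector. The overexpressing cells carried a FLAG-tagged PTPN21 delivered by a lentiviral vector with the SFFV promoter. The study's methods state that experiments were repeated independently, but neither they nor the labels tie the 3 libraries of a group to separate cultures, so p-values measure the spread between these libraries, which may be technical.

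The respiratory chain passes electrons from NADH through complex I, or from succinate through complex II, to ubiquinone, then through complex III and cytochrome c to complex IV, which reduces oxygen. Complexes I, III and IV pump protons across the inner mitochondrial membrane, and complex V, the ATP synthase, uses that gradient. Mitochondrial DNA encodes the membrane core of complex I, cytochrome b of complex III and the catalytic core of complex IV, so these complexes need RNA from both genomes, while all subunits of complex II are nuclear.

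Before the results, the labels were set against the data. PTPN21 RNA was 0.0638 ± 0.0378 FPKM in NC+DMSO and 8.82 ± 1.48 in PTPN21+DMSO (mean ± SD, n = 3 libraries each). With VCR it was 0.367 ± 0.205 in the control cells and 5.74 ± 1.21 in the overexpressing cells, so the labelled overexpression was present under both treatments. The defining T cell markers went against the labelled cell type. Of 13 T cell markers only CD3D, at a mean of 110.4 FPKM, and TRBC1, at 1.81, reached a mean of 1 FPKM, and CD247, CD28 and LCK were listed at 0 in all 12 libraries. By contrast the epithelial genes KRT8, KRT18 and EPCAM had means of 578, 273 and 81.9 FPKM, and the erythroid genes HBA1 and HBA2 90.8 and 49.1. Of 4 markers each, 3 epithelial, 2 myeloid, 0 B cell and 0 fibroblast markers reached a mean of 1 FPKM, as did 2 of 3 erythroid markers, and CDH1 (0.294) and HBB (0.194) did not. The summed level of the epithelial markers was 388 to 589 FPKM in NC+DMSO and 510.2 to 579 in PTPN21+DMSO, and with VCR it was 1154 to 1359 in NC and 1203 to 1676 in PTPN21 cells. The summed level of the erythroid markers was 131.0 to 149, 199.9 to 305, 72.1 to 86.5 and 91.0 to 113 FPKM in the same order, and that of the T cell markers 64.5 to 98.0, 119.7 to 147, 110.1 to 137 and 109 to 115. The epithelial sum was thus higher with VCR in both kinds of cells and overlapped between NC and PTPN21 cells, and the erythroid sum was lower with VCR and higher in PTPN21 cells under both treatments. The T cell sum was higher in PTPN21+DMSO than in NC+DMSO and overlapped between the VCR groups. It was made almost wholly of CD3D, at means of 79.3 FPKM in NC+DMSO and 130.2 in PTPN21+DMSO, and so describes that gene. The part of these markers in the results was not tested. In bulk libraries, fewer cells of a type and less RNA per cell cannot be told apart.

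FPKM are fragments scaled to gene length and to the total of the library. The table holds no counts, so the depth of each library is unknown and no counting interval can be given. Between 16232 and 20329 genes were above 0 in a library. The summed FPKM was 520098 to 580878 in NC+DMSO and 589430 to 595061 in NC+VCR. It was 593909 to 628041 in PTPN21+DMSO and 608949 to 629364 in PTPN21+VCR. The scale of the values thus moved with the construct under each treatment, and in NC cells also with VCR.

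All 59 subunits reached the minimum for testing, 1 FPKM as the mean of the 12 libraries, as did 11591 genes in all. The median level of the subunits was 67.2 FPKM, against 6.64 for all tested genes. Levels differed widely among subunits of the same chain. In complex I they ran from NDUFA9, a subunit of the matrix arm, at a mean of 5.51 FPKM, to NDUFS5, an accessory subunit of the membrane arm, at 577. In complex II the membrane anchor SDHC was lowest at 9.88 and the iron-sulfur subunit SDHB highest at 120.3. In complex III the Rieske iron-sulfur protein UQCRFS1 was lowest at 20.4 and the hinge protein UQCRH highest at 450.2. Complex IV held the highest values, from COX7B at 21.6 to COX7C at 2853 FPKM, a range of 132-fold. COX7C was also variable within groups, at 2175 ± 520, 3988 ± 922, 3012 ± 1024 and 2235 ± 985 FPKM (SD, n = 3) in NC+DMSO, PTPN21+DMSO and then the VCR groups of NC and PTPN21 cells.

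**Figure D1:**
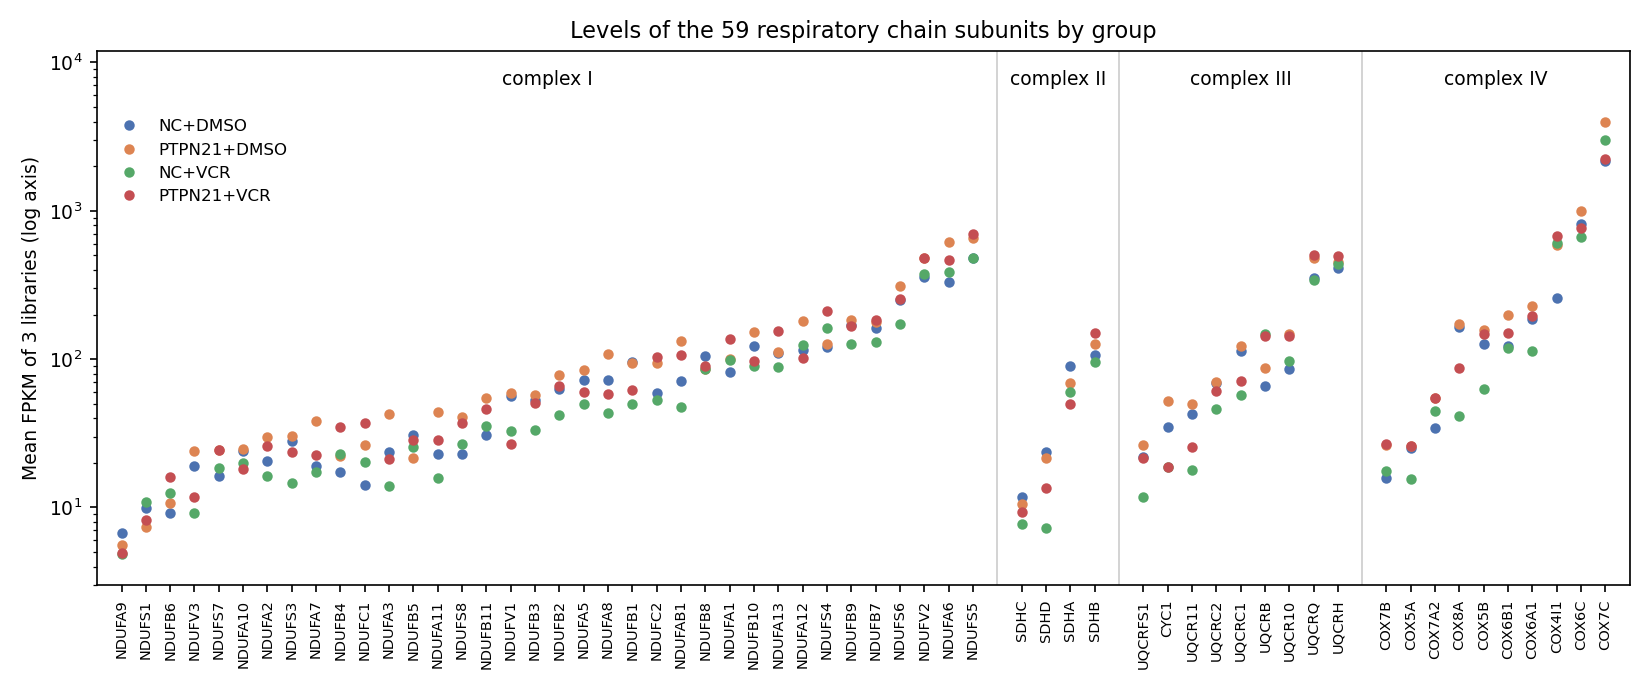
Mean FPKM of 3 libraries (log axis) for each of the 59 subunits, ordered by level within each complex, with 1 point per group. NDUFA9 lies lowest at a mean of 5.51 FPKM over 12 libraries and COX7C highest at 2853, and the NC+DMSO point of COX4I1 lies below its 3 other groups.

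The order of the subunits by level held at its ends, while its middle was not resolved by 3 libraries. COX7C, COX6C and NDUFS5 were among the 6 highest subunits in each of the 4 groups, and NDUFA9, NDUFS1 and SDHC among the 6 lowest. Of the 58 neighbouring pairs in that order, the libraries of both neighbours did not overlap in 4 pairs in NC+DMSO and 12 in PTPN21+DMSO, and in 3 and 8 pairs in the VCR groups of NC and PTPN21 cells. The median coefficient of variation of a subunit within a group was 17.2% in NC+DMSO and 21.0% in NC+VCR, against 8.34% in PTPN21+DMSO and 11.1% in PTPN21+VCR. NC+DMSO replicate 3 was the lowest of its group for 41 of the 59 subunits. Its correlation with the others of its group reached at most 0.949, and within-group pairs without it ran from 0.942 to 0.976. The tissue-restricted paralogs COX4I2, COX6A2, COX7A1 and COX8C were listed at 0, while the ubiquitous isoforms COX4I1, COX6A1, COX7A2 and COX8A had means of 531, 181, 47.1 and 117 FPKM. The paralogs COX6B2, COX7B2 and NDUFA4L2 were not all at 0, with means of 0.516, 0.0217 and 3.45 FPKM.

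The promoters of COX8A, COX5B, COX4I1 and UQCR10 are shown as examples of the subunits named with values below. Other named subunits, such as SDHD, changed more than UQCR10. RefSeq gives 300 bases for each, 250 before and 50 after the start, on build GRCh38.p14, and 51 of the 59 subunits matched an entry. COX8A lies at chr11:63974370-63974669 (plus strand), COX5B at chr2:97645812-97646111 (plus), COX4I1 at chr16:85799445-85799744 (plus) and UQCR10 at chr22:29767119-29767418 (plus). Capitals mark matches, on either strand, to 3 motifs known from nuclear genes of mitochondrial proteins: the NRF1 motif GCGCANGCG, the ETS core CCGGAAG read by the GABP family, and the YY1 motif AANATGGC.
COX8A: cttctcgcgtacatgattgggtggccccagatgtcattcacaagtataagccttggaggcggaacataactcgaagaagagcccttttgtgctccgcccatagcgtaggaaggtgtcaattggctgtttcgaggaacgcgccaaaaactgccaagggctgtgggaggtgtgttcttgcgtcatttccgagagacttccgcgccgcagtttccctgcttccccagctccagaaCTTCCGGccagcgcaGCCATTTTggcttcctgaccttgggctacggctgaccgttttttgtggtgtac
COX5B: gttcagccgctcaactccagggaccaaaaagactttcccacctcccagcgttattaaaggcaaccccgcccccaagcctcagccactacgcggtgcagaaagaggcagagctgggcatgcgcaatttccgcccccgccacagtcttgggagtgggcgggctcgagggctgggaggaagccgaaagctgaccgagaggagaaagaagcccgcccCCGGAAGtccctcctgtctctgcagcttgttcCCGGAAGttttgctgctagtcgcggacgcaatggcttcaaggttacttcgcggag
COX4I1: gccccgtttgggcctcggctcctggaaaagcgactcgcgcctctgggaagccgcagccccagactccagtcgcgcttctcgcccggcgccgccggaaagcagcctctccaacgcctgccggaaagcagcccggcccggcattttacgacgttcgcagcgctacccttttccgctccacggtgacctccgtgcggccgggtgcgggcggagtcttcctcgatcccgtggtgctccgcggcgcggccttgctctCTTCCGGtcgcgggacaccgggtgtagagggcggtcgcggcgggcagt
UQCR10: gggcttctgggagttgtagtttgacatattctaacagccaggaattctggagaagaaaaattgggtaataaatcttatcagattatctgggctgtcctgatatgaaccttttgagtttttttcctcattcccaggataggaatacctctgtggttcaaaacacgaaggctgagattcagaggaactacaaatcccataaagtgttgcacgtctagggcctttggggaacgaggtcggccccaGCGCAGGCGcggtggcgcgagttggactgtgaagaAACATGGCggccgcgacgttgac
COX8A held 1 ETS and 1 YY1 match, COX5B 2 ETS matches, COX4I1 1 ETS match, and UQCR10 1 NRF1 and 1 YY1 match. GCGCANGCG was found in 16 of the 51 promoters (31.4%), against 8.05% of 27305 promoters in all and 16.7% of 8097 promoters of tested genes. The stricter GCGCATGCG, which lies within the former motif, was in 6 (11.8%, against 2.10% and 4.26%). The ETS core was in 15 (29.4%, against 10.7% and 22.2%) and the YY1 motif in 19 (37.3%, against 6.82% and 11.8%). These are letters in a window and no measurement of binding.

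With VCR more subunits were lower than higher in the control cells on the deposited scale, at about the rate of other genes, and more were higher than lower after median ratio scaling. In NC+VCR against NC+DMSO, 20 of the 59 subunits fell and 2 rose at an adjusted p under 0.05 (limma, Benjamini-Hochberg over all 11591 genes). The fallers made 33.9% of the subunits, and 28.3% of all tested genes fell. Risers were 3.39% of the subunits against 7.91% of all genes. In all, 37.3% of the subunits and 36.2% of all genes were called. The median difference in log2(FPKM + 1) was -0.32 over the subunits and -0.36 over all tested genes. This split depended on the scale: after median ratio scaling, which set the all-gene median to -0.03, 9 subunits rose and 6 fell, after quantile normalization 7 rose and 12 fell, and with length and GC trends removed 9 rose and 11 fell. Of all genes 14.9% rose and 11.5% fell after median ratio scaling, 13.3% and 12% after quantile normalization, and 14.9% and 12.1% with the trends removed. The exons of the subunits were short, with a median length of 2151 bases against 4384 for tested genes.

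COX8A, a small subunit of complex IV, fell most. It stood at 168, 188 and 138 FPKM in NC+DMSO and at 43.9, 32.3 and 47.7 in NC+VCR, groups far apart. The difference was -1.98 ± 0.150 in log2(FPKM + 1) (SE, limma adjusted p = 3.92e-06). COX5B, the zinc-binding subunit of complex IV, was at 136, 141 and 102 FPKM in NC+DMSO and at 54.1, 67.6 and 68.5 in NC+VCR. It fell by 0.98 ± 0.152 (limma adjusted p = 0.000589).

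SDHD, a membrane anchor of complex II that helps to bind ubiquinone, was at 28.4, 19.6 and 22.9 FPKM in NC+DMSO and at 8.55, 7.61 and 5.67 in NC+VCR. It fell by 1.57 ± 0.205 on the log2 scale (limma adjusted p = 0.000184), without overlap of the libraries. Of the other complex II subunits the flavoprotein SDHA also fell (-0.60, limma adjusted p = 0.0166), from 90.3 ± 10.2 to 60.2 ± 14.9 FPKM (SD, n = 3). SDHB was at 107 ± 20.1 and 95.8 ± 12.9 FPKM and SDHC at 11.8 ± 1.98 and 7.77 ± 3.10, and neither passed the test.

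In complex III 5 of 9 subunits fell (55.6%, against 28.3% of all genes) and 1 rose (11.1%, against 7.91%). The core protein UQCRC1 was at 115, 129 and 96.9 FPKM in NC+DMSO and at 56.3, 47.7 and 68.9 in NC+VCR, a difference of -0.97 ± 0.148 (limma adjusted p = 0.000485). Cytochrome c1, CYC1, which hands electrons to cytochrome c, fell by 0.87 ± 0.159 (limma adjusted p = 0.0016), from 35.0 ± 5.70 to 18.7 ± 2.27 FPKM (SD, n = 3). UQCRFS1, UQCRC2 and UQCR11 were the other fallers. UQCRB, the ubiquinone-binding protein of complex III, went the other way. Its libraries were at 67.2, 71.2 and 60.4 FPKM in NC+DMSO and at 171, 124 and 150.3 in NC+VCR, and it rose by 1.14 ± 0.138 (limma adjusted p = 0.000113).

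COX4I1, a large nuclear subunit of complex IV with a regulatory role, was the other riser. It stood at 221, 264 and 285 FPKM in NC+DMSO and at 605, 629 and 588 in NC+VCR. All libraries of both groups were apart, with a difference of 1.25 ± 0.108 (limma adjusted p = 1.13e-05). In complex I 10 of 36 subunits fell (27.8%, against 28.3% of all genes) and 0 rose (against 7.91% of all genes). At an unadjusted p under 0.05 by limma, 3 subunits of complex I rose and 13 fell, against 5379 of 11591 genes in either direction. Among its nuclear core subunits NDUFV1, which binds the flavin that takes electrons from NADH, fell by 0.76 (limma adjusted p = 0.0121) and NDUFS3, a core subunit of the matrix arm, by 0.94 (limma adjusted p = 0.00957). NDUFV2, NDUFS1, NDUFS7 and NDUFS8 did not pass the test.

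**Figure D2:**
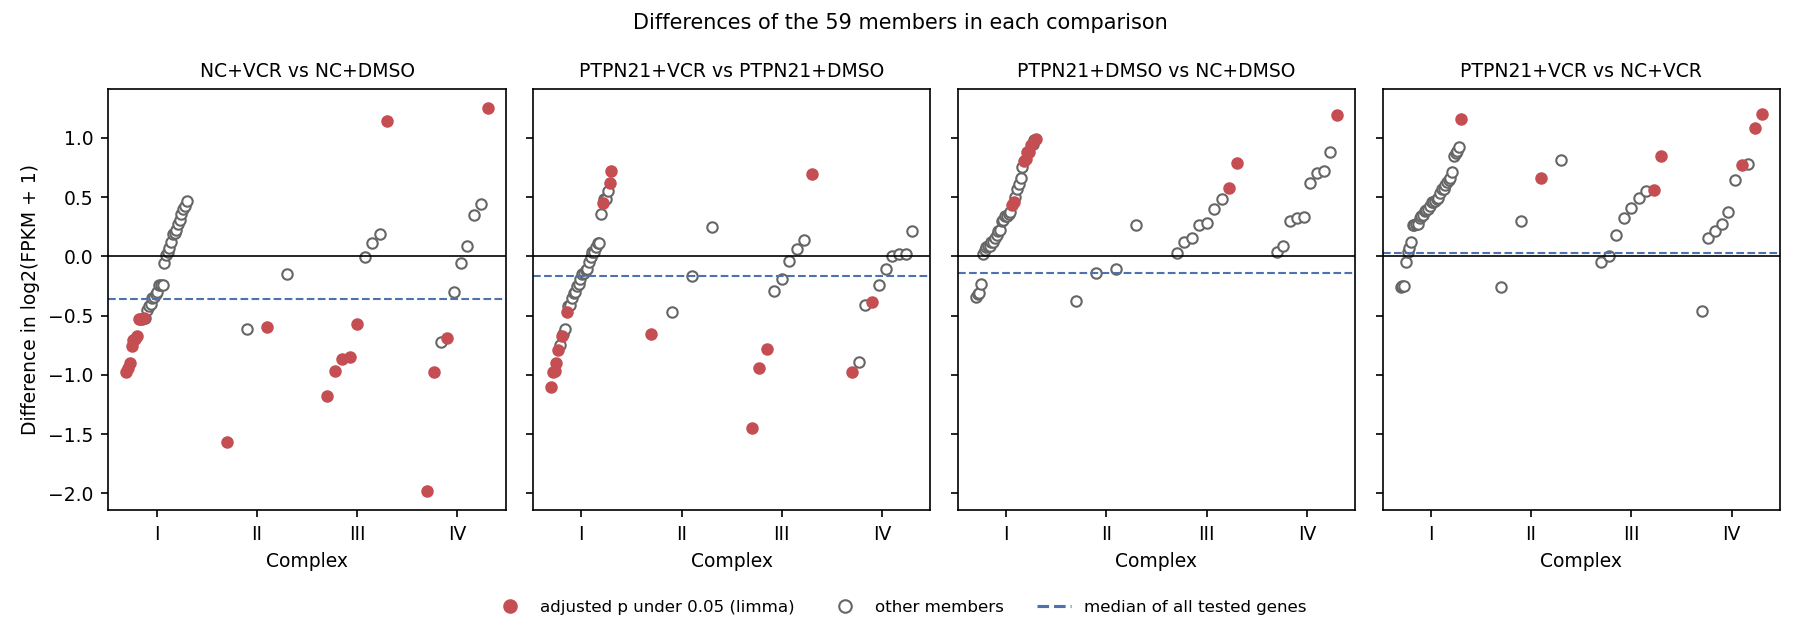
Difference in log2(FPKM + 1) of each subunit by complex in the comparisons between groups, with filled points for subunits at a limma adjusted p under 0.05 and a dashed line at the median of all tested genes. Filled points lie on both sides of 0 in the VCR comparisons (20 lower and 2 higher in NC, 13 lower and 4 higher in PTPN21) and above 0 in the PTPN21 comparisons (11 in DMSO and 7 in VCR).

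The PTPN21 cells showed a like pattern under VCR, measured on other libraries. In PTPN21+VCR against PTPN21+DMSO 13 subunits fell and 4 rose, 28.8% of the 59, while 28.5% of all genes were called. Fallers were 22.0% of the subunits against 19.3% of all genes, risers 6.78% against 9.22%, and the median difference in log2(FPKM + 1) was -0.19 against -0.17. After median ratio scaling 5 rose and 8 fell, after quantile normalization 6 rose and 12 fell, and with length and GC trends removed 6 rose and 9 fell. Under these scales 13.2%, 14.2% and 12.1% of all genes rose and 12.6%, 13.3% and 11.3% fell. In both comparisons 10 subunits fell, namely NDUFA3, NDUFA5, NDUFA8, NDUFV1, NDUFV3, SDHD, UQCRC1, UQCR11, CYC1 and COX8A, which is 16.9% of the subunits against 13.8% of all genes that fell in both, and UQCRB rose in both. No subunit passed in opposite directions.

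CYC1 changed most in the PTPN21 cells. It was at 49.2, 59.1 and 49.6 FPKM in PTPN21+DMSO and at 20.4, 16.4 and 19.1 in PTPN21+VCR, a fall of 1.45 ± 0.159 (limma adjusted p = 6.11e-05). COX8A fell by 0.98 ± 0.150 (limma adjusted p = 0.000575), from 168, 172 and 182 FPKM to 89.9, 85.9 and 86.4. Both genes were lower in all 3 VCR libraries.

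NDUFV1 was at 54.8, 65.2 and 56.7 FPKM in PTPN21+DMSO and at 29.2, 25.7 and 25.6 in PTPN21+VCR, a difference of -1.10 ± 0.200 (limma adjusted p = 0.0018). NDUFA8, an accessory subunit of the membrane arm with disulfide bonds, fell by 0.90 (limma adjusted p = 0.00288) and UQCRC1 by 0.78 (limma adjusted p = 0.00235). UQCRB rose by 0.69 ± 0.138 (limma adjusted p = 0.00327), from 97.4, 83.4 and 82.6 FPKM to 134, 132 and 161. The other risers were NDUFA1, NDUFB4 and NDUFS4, all of complex I, by 0.45 to 0.72 on the log2 scale. NDUFS4, a matrix arm subunit mutated in some forms of Leigh syndrome, was named after its values were seen. It stood at 123, 134 and 122 FPKM in PTPN21+DMSO and at 189, 249.7 and 194 in PTPN21+VCR.

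**Figure D3:**
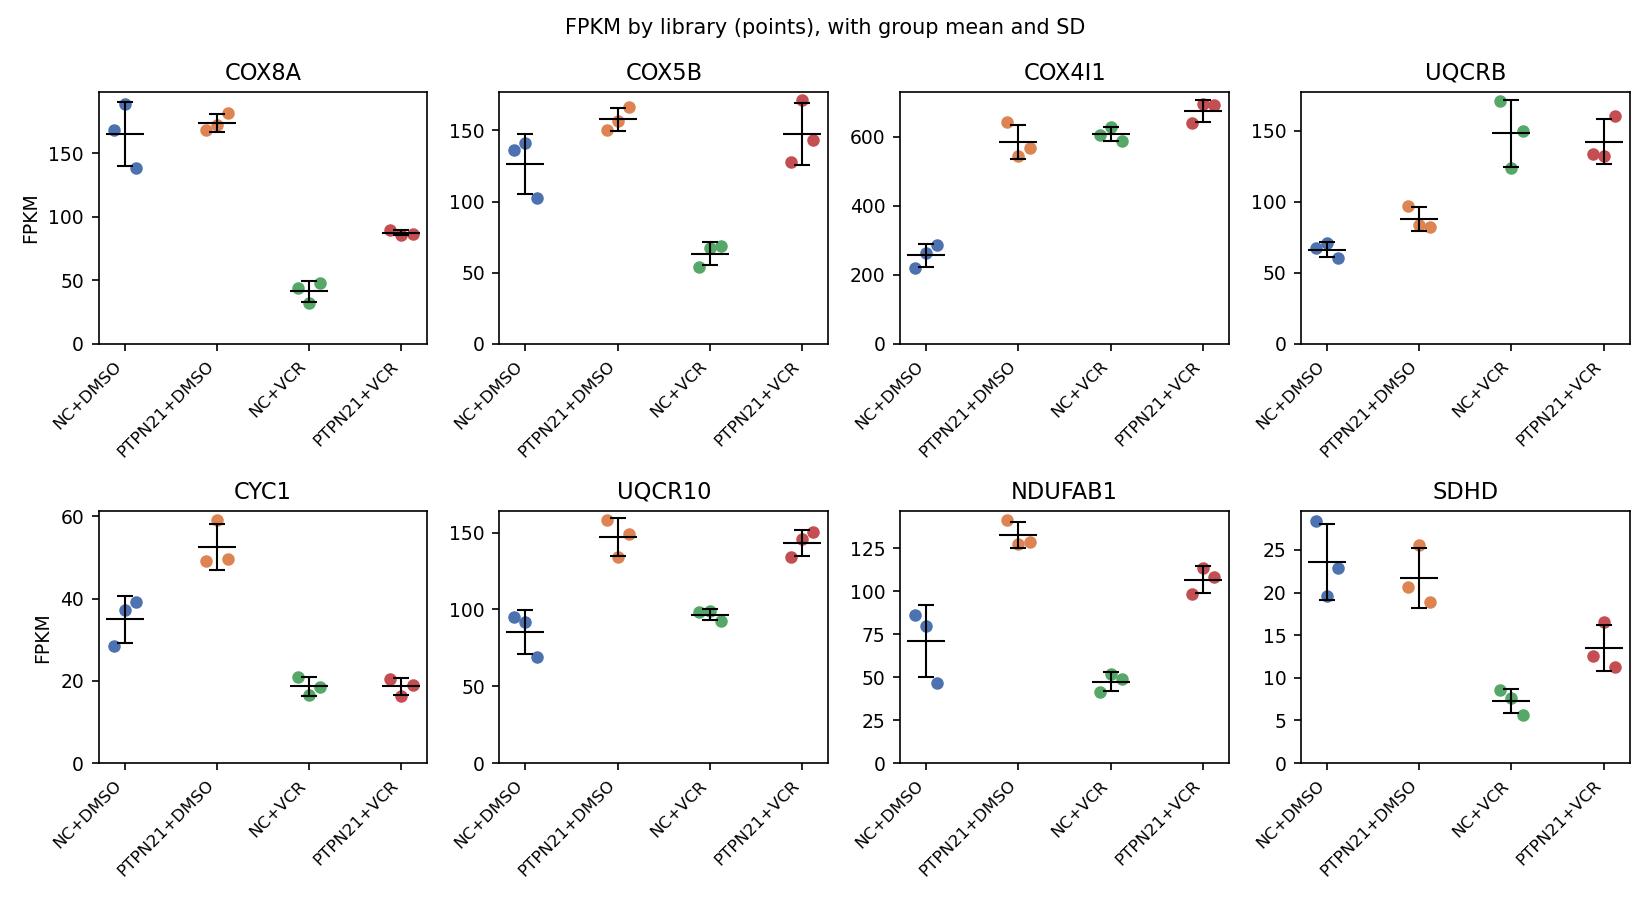
FPKM in each library (points) with the mean and SD of 3 libraries (black) for 8 subunits. COX8A, CYC1 and SDHD are lower in both VCR groups, COX4I1 is low only in NC+DMSO (221 to 285 FPKM), COX5B is low only in NC+VCR (54.1 to 68.5 FPKM), and UQCR10 and NDUFAB1 are higher in both PTPN21 groups.

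PTPN21 overexpression went with higher levels of many subunits and with no subunit past the test downwards. In PTPN21+DMSO against NC+DMSO 11 of the 59 subunits rose and 0 fell by limma (28 and 1 at an unadjusted p under 0.05). The risers made 18.6% of the subunits, while 2.65% of all tested genes rose and 3.69% fell (6.34% called in all). At the unadjusted threshold 2968 of 11591 genes passed in either direction. The median difference in log2(FPKM + 1) was 0.32 over the subunits and -0.14 over all genes (0.19 over the subunits without NC+DMSO replicate 3, 0.18 with TPM scaling and 0.52 with median ratio scaling), and 52 subunits had a difference above 0. The 3 PTPN21+DMSO libraries lay above all 3 NC+DMSO libraries in 29 subunits (49.2%, against 11.5% of all genes). They lay below them in 2, SDHA and NDUFB8 (3.39%, against 21.9% of all genes). By complex, 8 of 36 subunits rose in complex I, 0 of 4 in complex II, 2 of 9 in complex III and 1 of 10 in complex IV. Median differences were 0.34, -0.12, 0.28 and 0.48 in the same order. In complex II 0 were higher and 1, SDHA (-0.38), was lower at an unadjusted p under 0.05 by limma. The number of calls depended on the libraries and the fit. Without NC+DMSO replicate 3 it was 3, without NC+DMSO replicate 1 also 3, and without PTPN21+DMSO replicate 1, 2 or 3 it was 1, 5 and 2. Without PTPN21+VCR replicate 1, 2 or 3, which enter through the shared spread, it was 4, 6 and 6. All-gene shares for these fits are not given here.

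COX4I1 rose most, from 221, 264 and 285 FPKM in NC+DMSO to 642, 545 and 568 in PTPN21+DMSO. The difference was 1.19 ± 0.108 (limma adjusted p = 0.000647), and it passed in all 22 alternative fits. UQCR10, a small subunit of complex III, was at 95.4, 91.6 and 69.0 FPKM in NC+DMSO and at 158, 134 and 149 in PTPN21+DMSO. It rose by 0.79 ± 0.129 (limma adjusted p = 0.00988), with no overlap of the libraries.

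NDUFAB1, the mitochondrial acyl carrier protein, which sits in both arms of complex I and also serves fatty acid and lipoate synthesis, was at 86.1, 80.0 and 46.9 FPKM in NC+DMSO and at 142, 128 and 129 in PTPN21+DMSO. It rose by 0.94 ± 0.193 (limma adjusted p = 0.0223). The iron-sulfur subunit NDUFS8 (0.80, limma adjusted p = 0.0305), the membrane arm subunit NDUFA3 (0.88, limma adjusted p = 0.033) and NDUFC1 (0.88, limma adjusted p = 0.0367) rose as well. NDUFC1 stood at 14.2 ± 3.51 FPKM in NC+DMSO and at 26.4 ± 1.89 in PTPN21+DMSO (SD, n = 3). The 5 other risers were NDUFA6, NDUFB11, NDUFS5, NDUFV2 and CYC1, with adjusted p from 0.0405 to 0.0496 by limma.

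**Figure D4:**
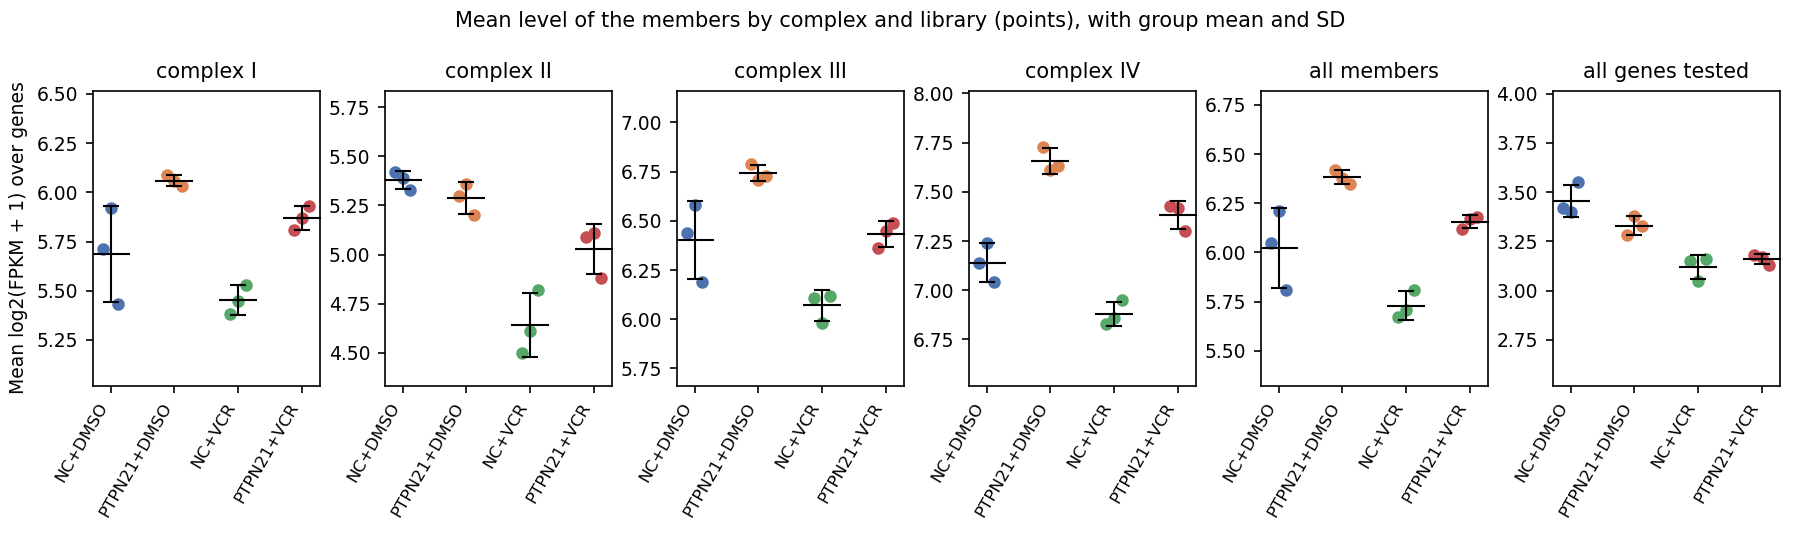
Mean of log2(FPKM + 1) over the subunits of each complex, over all 59 subunits and over all tested genes, in each library (points) with the group mean and SD (black, n = 3); each panel spans the same height. The mean over all subunits was 6.02 in NC+DMSO and 5.73 in NC+VCR, against 6.38 in PTPN21+DMSO and 6.15 in PTPN21+VCR, while that over all genes was 3.46, 3.12, 3.33 and 3.16 in the same order.

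With VCR the PTPN21 cells again had the higher levels. In PTPN21+VCR against NC+VCR 7 subunits rose and 0 fell by limma (32 and 0 at an unadjusted p under 0.05). That was 11.9% of the subunits, against 1.00% of all genes that rose, 0.820% that fell and 1.82% called in all. At the unadjusted threshold 1980 of 11591 genes passed in either direction. The median difference in log2(FPKM + 1) was 0.42 over the subunits and 0.03 over all genes. The libraries were apart and higher in 33 subunits (55.9%, against 12.3% of all genes), and 19 subunits were higher without overlap under both treatments (32.2%, against 3.55% of all genes). By complex, 1 of 36 subunits rose in complex I, 1 of 4 in complex II, 2 of 9 in complex III and 3 of 10 in complex IV, with medians of 0.44, 0.48, 0.41 and 0.50. Leaving out PTPN21+VCR replicate 2 or 3 left 2 calls each, and leaving out NC+DMSO replicate 3, which enters through the shared spread, gave 15. There were 3 calls without NC+VCR replicate 1 or 2 or PTPN21+VCR replicate 1, and 4 without NC+DMSO replicate 1 or any 1 of the PTPN21+DMSO libraries. All-gene shares for these fits are not given here.

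COX5B was at 54.1, 67.6 and 68.5 FPKM in NC+VCR and at 128, 171 and 143 in PTPN21+VCR, a rise of 1.20 ± 0.152 (limma adjusted p = 0.0033). COX8A was at 43.9, 32.3 and 47.7 FPKM in NC+VCR and at 89.9, 85.9 and 86.4 in PTPN21+VCR, a rise of 1.08 ± 0.150 (limma adjusted p = 0.00596). Both passed in all 22 alternative fits, and the PTPN21+VCR libraries lay above those of NC+VCR.

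NDUFAB1 rose by 1.16 ± 0.193 (limma adjusted p = 0.0134), from 41.3, 52.1 and 48.9 FPKM to 98.3, 113.5 and 109. COX6A1, the ubiquitous isoform of subunit VIa of complex IV, was at 108, 102.6 and 130.4 FPKM in NC+VCR and at 189, 198 and 195 in PTPN21+VCR, and rose by 0.77 (limma adjusted p = 0.0189). SDHB rose by 0.66 (limma adjusted p = 0.0422) and UQCRFS1 by 0.85 (limma adjusted p = 0.0446). UQCR10, the 7th riser, and NDUFAB1 passed under both treatments. For UQCR10 the difference was 0.56 (limma adjusted p = 0.0496), and its libraries were at 98.6, 99.0 and 92.4 FPKM in NC+VCR and at 134, 146 and 150.3 in PTPN21+VCR. Of 22 alternative fits of this comparison, NDUFAB1 passed in 19, COX6A1 in 13, SDHB in 7, UQCRFS1 in 6 and UQCR10 in 5.

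The rise with PTPN21 was measured under other scales as well. The calls were all upwards under each: with TPM scaling, which equalizes the summed FPKM, 7 subunits rose in DMSO and 8 in VCR, with median ratio scaling 13 and 3, with quantile normalization 8 and 5, and with length and GC trends removed 7 and 3. Of all genes, 1.92%, 3.6%, 3.17% and 2.32% rose in DMSO under these scales in the same order, and 0.966%, 0.5%, 0.716% and 0.66% in VCR. An estimate of fragments from steps in FPKM times length gave 20600000 to 24000000 in the PTPN21 libraries and 28700000 to 35900000 in the NC libraries. Whether a step is 1 fragment or 2 was not settled, so the order of the depths is not known, and depth and construct cannot be told apart.

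The test for a different response to VCR in control and PTPN21 cells passed for 1 subunit. The interaction of PTPN21 and VCR passed for COX4I1 (-1.04 ± 0.153 in log2(FPKM + 1), limma adjusted p = 0.0231), 1.69% of the subunits against 0.129% of all genes (0.104% below and 0.0259% above 0). Its level was 257 ± 32.7 FPKM in NC+DMSO and 607 ± 20.4 in NC+VCR, against 585 ± 50.4 in PTPN21+DMSO and 675 ± 30.9 in PTPN21+VCR (SD, n = 3). Thus only the NC+DMSO libraries were low. The interaction passed in 10 of 21 alternative fits, with adjusted p from 0.00959 to 0.116. The next subunits, COX8A (1.00, limma adjusted p = 0.0942) and COX5B (0.87, limma adjusted p = 0.138), did not pass. At an unadjusted p under 0.05 by limma, 4 subunits were above 0 and 5 below, against 1624 of 11591 genes in either direction. Subunits that did not pass were not shown to respond alike. COX4I1 lies at chr16:85798633-85807044 on build GRCh38, plus strand, and its exons overlap EMC8 on the opposite strand. The strand used in counting is not given in the sources used here.

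Other genes of the pathway were read from lists and counted on the deposited scale only. Beside the counts in this and the next paragraphs stand the shares of all tested genes. With VCR 28.3% fell and 7.91% rose in NC, and 19.3% fell and 9.22% rose in PTPN21. With PTPN21 2.65% rose and 3.69% fell in DMSO, and 1.00% rose and 0.820% fell in VCR. At an unadjusted p under 0.05 by limma, 5379 of 11591 genes passed with VCR in NC and 4628 in PTPN21. With PTPN21 2968 passed in DMSO and 1980 in VCR, all in either direction. Of the 13 mitochondrially encoded subunits, 11 fell and 0 rose with VCR in NC and 10 fell and 0 rose in PTPN21 (0 rising at an unadjusted p under 0.05 by limma in either), with median differences of -0.77 and -0.54. MT-CYB, cytochrome b of complex III, had means of 1939 FPKM in NC+DMSO and 729 in NC+VCR, against 2075 in PTPN21+DMSO and 828 in PTPN21+VCR. With PTPN21, 0 rose and 1 fell in DMSO (1 and 1 at an unadjusted p under 0.05 by limma) and 2 rose and 0 fell in VCR (6 and 1), among them MT-CO3 (0.78, limma adjusted p = 0.00705).

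In complex V 1 of 18 subunits rose and 5 fell with VCR in NC, and 2 rose and 5 fell in PTPN21. With PTPN21 4 rose and 0 fell in DMSO and 3 rose and 0 fell in VCR (8 and 0, then 13 and 0 at an unadjusted p under 0.05 by limma), with medians of 0.43 and 0.49. ATP5F1B, the catalytic beta subunit, had means of 296 FPKM in NC+DMSO and 116 in NC+VCR, against 273 in PTPN21+DMSO and 147.5 in PTPN21+VCR. ATP5MG, of the membrane part, had 97.3, 88.1, 195 and 206 FPKM in the same order.

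Of 49 tested assembly factors of complexes I to IV, 2 rose and 17 fell with VCR in NC and 1 rose and 13 fell in PTPN21. With PTPN21 5 rose and 0 fell in DMSO and 1 rose and 0 fell in VCR (11 and 1, then 14 and 1 at an unadjusted p under 0.05 by limma). COA6, a copper chaperone for complex IV, rose with PTPN21 in DMSO (0.98, limma adjusted p = 0.0131) and fell with VCR in PTPN21 (-1.77, limma adjusted p = 2.73e-05). Of 10 tested regulators of these genes 7 fell with VCR in NC and 4 in PTPN21, while 0 passed with PTPN21 under either treatment (at an unadjusted p under 0.05 by limma, 0 rose and 2 fell in DMSO and 0 in VCR). PPARGC1A was listed at 0.

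Of 12 genes of the tricarboxylic acid cycle, 8 fell with VCR in NC and 5 in PTPN21, and with PTPN21 0 passed in DMSO (1 rising and 3 falling at an unadjusted p under 0.05 by limma) and 1, MDH2, rose in VCR. Of 17 glycolysis genes 6 and 5 fell with VCR, and with PTPN21 1 rose and 2 fell in DMSO and 0 passed in VCR (2 rising and 3 falling at an unadjusted p under 0.05 by limma). Of 5 tested other nuclear subunits and isoforms, 1, cytochrome c (CYCS), fell with VCR in both NC and PTPN21, and 0 passed with PTPN21 (2 and 1 rising at an unadjusted p under 0.05 by limma in DMSO and VCR).

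The subunits together made 1.39% to 2.15% of the summed FPKM of a library, and 0.952% to 1.42% without COX7C. Pseudogenes carry the name of 33 of the 59 subunits, and exons of 32 overlap another gene, so fragments may have been split or shared there. The 32 include COX8A, SDHD and NDUFV1, each overlapping a gene on the same strand. The named pseudogenes of SDHA had mean levels summing to 21.8 FPKM, against 67.2 for SDHA.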

How the data were processed

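The authors deposited FPKM for 12 libraries in 1 table with human Ensembl identifiers. Submitters' processing notes name fastp, Bowtie2 and the build mm10, a mouse build, and the counting program and annotation are not given in the sources used here. Of the 60671 identifiers, 58453 (96.3%) were found in GENCODE 29 (GRCh38), which gave positions and lengths. Groups came from the labels. The scale was log2(FPKM + 1), on which changes of low genes appear smaller, and 11591 genes reached the minimum of 1 for the mean FPKM. One model of the 4 group means with an intensity trend was fitted in limma 3.58.1 (R 4.3.3), giving 5 comparisons, with Benjamini-Hochberg adjustment over all genes and a threshold of 0.05.

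The alternatives were TPM, median ratio and quantile scaling, removal of length and GC trends, 0.1 as the pseudocount, no filter or a minimum of 5 for the mean FPKM, no trend, the groups compared alone, a replicate block and leaving out each library. The rule for members used gene names alone, but members and lists were chosen with earlier results of these data known. Named with values were, in each comparison between groups, up to 6 members past the threshold with the smallest p, for the interaction the 3 with the smallest p, the highest and lowest member of each complex, core subunits, and at most 2 genes of each other list. Some genes of the lists are not reported here and are left out of the counts of their lists. An exact two-sided permutation test of 3 against 3 cannot go below 0.1 and was not used. Python 3.11.15, pandas 2.3.3, numpy 2.4.6 and matplotlib 3.10.9 made tables and plots.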

Additional observations from a re-analysis of the deposited data

Results flagged for a closer look

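The effect of VCR on COX4I1 differed between control and PTPN21 cells by the test of the difference itself: the interaction was -1.04 in log2(FPKM + 1) (limma adjusted p = 0.0231). It passed in 10 of 21 alternative fits, with limma adjusted p from 0.00959 to 0.116, and kept its direction in all 21. VCR libraries of the control cells were higher by 1.25, while in the PTPN21 cells COX4I1 was at 545 to 642 FPKM with DMSO and at 639 to 694 with VCR.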

How the results depend on the processing

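After median ratio scaling the median difference of the subunits turned to 0.07 for NC+VCR against NC+DMSO and to -0.09 for the interaction, and was -0.01 for PTPN21+VCR against PTPN21+DMSO. With length and GC trends removed these medians were -0.01 and -0.03 in the VCR comparisons. For PTPN21+DMSO against NC+DMSO the median was 0.18 with TPM scaling and 0.52 with median ratio scaling. With the groups compared alone the subunits called were 14 (NC+VCR against NC+DMSO), 27 (PTPN21+VCR against PTPN21+DMSO) and 1 (PTPN21+DMSO against NC+DMSO). For PTPN21+DMSO against NC+DMSO calls were 7 with TPM scaling, 2 with no filter, 3 with no trend and 7 with length and GC trends removed. For PTPN21+VCR against NC+VCR calls were 3 with median ratio scaling, 4 with no filter, 11 with a minimum of 5 for the mean FPKM, 3 with no trend and 3 with length and GC trends removed. The interaction had 0 calls with no filter and with no trend, and 2 with length and GC trends removed (0.252% of all genes). With a replicate block, calls were 3 in each PTPN21 comparison and 0 for the interaction. No all-gene shares stand beside the counts for groups alone, no filter, a minimum of 5, no trend, a block or a library left out. Those counts cannot tell a change in the subunits from one over all genes. Deviations of same-numbered libraries from their group means had correlations of -0.145 to 0.0583 over 18 pairs. These were not set against pairs with different numbers, so they cannot settle whether same-numbered libraries shared a culture or day. Leaving out 1 library gave 18 to 24, 14 to 20, 1 to 14, 2 to 15 and 0 to 1 calls in NC+VCR against NC+DMSO, PTPN21+VCR against PTPN21+DMSO, PTPN21+DMSO against NC+DMSO, PTPN21+VCR against NC+VCR and the interaction, and medians of -0.39 to -0.22, -0.24 to -0.18, 0.19 to 0.45, 0.39 to 0.50 and 0.04 to 0.20. For 62 pairs of a gene and a comparison, 140 of 615 values under the other settings and 153 of 744 without a library lost the call, 1 gained it, and 0 changed direction. These pairs are not all pairs of a subunit and a comparison. Other subunits did change direction, such as NDUFC2 (-0.06) in 5 of 22 fits of NC+VCR against NC+DMSO. The fits share libraries, so an unchanged direction is no independent evidence. Neither the cause of the changes in this section nor the part of depth in them was tested.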
